A study of Danio rerio with 12 samples.

Results

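Regrowth of an amputated zebrafish fin requires the extracellular matrix of the stump to be cut and rebuilt, and the genes described here encode 8 matrix proteases and 2 of their inhibitors. They are mmp2, mmp9, mmp13a, mmp13b, mmp11a, mmp14a, mmp14b, adam8a, timp2a and timp2b, 10 of the 16951 genes in the mRNA table. The genes mmp9, adam8a and both copies of mmp14 and timp2 were taken by Ensembl identifier, and mmp2, mmp11a, mmp13a and mmp13b by gene name. The polyA+ mRNA, sequenced with its strand kept, came from caudal fins of adult Ekkwill zebrafish, a laboratory strain with no altered gene named in the labels. There were 3 libraries of fin tissue at 0 days post-amputation (dpa) and 3 of the regenerate at 4 dpa, when a blastema, the mass of dividing cells that rebuilds the fin, is present. All fish were anaesthetised with MS222 before amputation, and each library pooled several fins, so no value belongs to a single animal.

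Matrix metalloproteinases (MMPs) are zinc-dependent enzymes made as inactive precursors. Collagenases such as Mmp13 cut fibrillar collagen, gelatinases such as Mmp2 and Mmp9 degrade denatured collagen and basement membrane, and membrane-type MMPs such as Mmp14 act at the cell surface. Tissue inhibitors of metalloproteinases (TIMPs) bind the active site, but in mammals TIMP2 also bridges MMP14 and the MMP2 precursor, so that MMP2 is activated at the membrane. These roles are background knowledge, and transcript levels do not show how much active enzyme was present.

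The reads recovered from the deposited values summed to 17928712 to 25223147 per library over the 16951 genes. Levels are given as CPM, reads scaled to a common library size that the authors had adjusted. Each gene was compared between the days with limma on the log2(CPM + 1) scale, with Benjamini-Hochberg adjustment across the 16951 genes. All 10 protease and inhibitor genes were called higher at 4 dpa (limma adjusted p under 0.05). Of all genes, 62.1% were called in either direction, 31.0% higher and 31.2% lower, or 5251 and 5281 genes. Scaled to total reads instead, the median of all genes moved to 0.24 on the log2 scale and the split to 7518 higher and 3595 lower. The rise was at least 2-fold in all 10 genes, as it was in 10.8% of all genes. Each of the 10 had all its 4 dpa libraries above its 0 dpa libraries, and 68.1% of all genes had days that did not overlap in either direction. The median log2 fold-change was 2.60 over the 10 genes and −0.0048 over all genes. Each of the 10 had at least 21 reads in every library, so none of the calls rested on a day without reads. As whole pieces of tissue were sequenced, more cells of a type and more RNA per cell cannot be told apart for any of these rises.

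**Figure D1:**
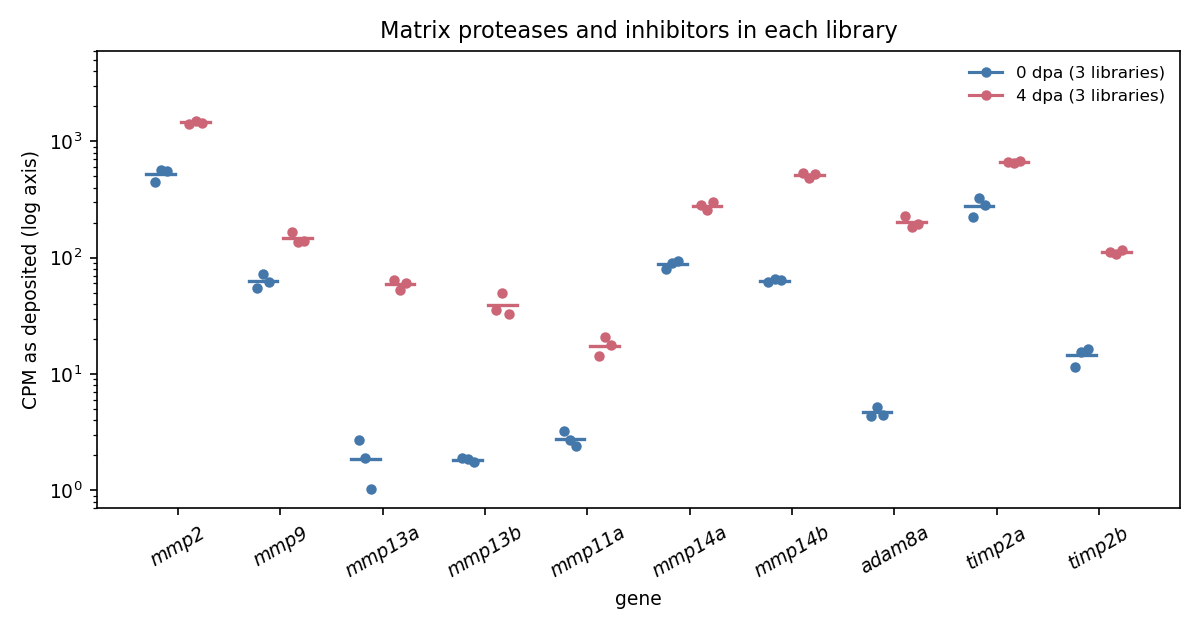
CPM of the 10 genes in each library on a log axis, with 3 points for 0 dpa (blue) and 3 for 4 dpa (red) and a line at the mean of the day. In every gene the 4 dpa points lie above all 0 dpa points, from a ratio of mean CPM of 2.33 for mmp9 to 43.0 for adam8a.

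The collagenases were among the larger rises. In mmp13a (ENSDARG00000012395), the level was 2.70, 1.90 and 1.02 CPM in the 0 dpa libraries and 63.9, 52.6 and 60.9 CPM in the 4 dpa libraries. The log2 fold-change was 4.44 (SE 0.21, adjusted p = 1.61e-06 by limma), and the ratio of mean CPM was 31.6. The 0 dpa values of mmp13a rested on 51, 41 and 21 reads and were uneven. The exact Poisson 95% interval was 2.01 to 3.55 CPM in replicate 1 and 0.634 to 1.56 CPM in replicate 3. These intervals cover counting error only.

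The row taken as mmp13b (ENSDARG00000015797) has this name in the annotation of the study, but the reference name table gives the name to another identifier, absent from the mRNA table, so its identity is less certain than that of the other genes. It had 1.90, 1.86 and 1.75 CPM at 0 dpa and 35.7, 50.1 and 32.7 CPM at 4 dpa. Its 0 dpa libraries lay close together, on 36, 40 and 36 reads, and the wider spread was among the 4 dpa libraries, with replicate 2 highest. The log2 fold-change was 3.83 (SE 0.16, adjusted p = 1.02e-06 by limma), and the ratio of mean CPM was 21.5. At 4 dpa, replicate 2 was thus the highest library for mmp13b and the lowest for mmp13a.

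The gelatinases also rose, with smaller fold-changes. The gene mmp2 (ENSDARG00000017676) had 448, 572 and 558 CPM at 0 dpa and 1415, 1508 and 1433 CPM at 4 dpa. The days were far apart against the spread within them, with 526 ± 67.6 and 1452 ± 49.5 CPM (SD, n = 3 each). The log2 fold-change was 1.49 (SE 0.11, adjusted p = 1.11e-05 by limma), a ratio of mean CPM of 2.76.

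The level of mmp9 (ENSDARG00000042816), which leukocytes, epidermis and osteoclasts can express, was 55.2, 71.8 and 62.2 CPM at 0 dpa. At 4 dpa it was 166, 135 and 140 CPM. No library overlapped between the days, but the rise was the smallest of the 10 genes on the log2(CPM + 1) scale, at 1.23 (SE 0.12, adjusted p = 5.86e-05 by limma), and the ratio of mean CPM was 2.33. By this scale it ranked 1316 of all 16951 genes from the largest rise down, while mmp13a ranked 30 and mmp13b 56.

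Stromelysin-3, an MMP that furin-type convertases activate inside the cell before secretion, has a copy, mmp11a (ENSDARG00000026325), with low counts in this fin. It had 3.22, 2.74 and 2.39 CPM at 0 dpa on 61, 59 and 49 reads, and 14.3, 20.6 and 17.6 CPM at 4 dpa. Its lowest 4 dpa library was several times its highest 0 dpa library. The log2 fold-change was 2.30 (SE 0.16, adjusted p = 9.56e-06 by limma), and the ratio of mean CPM was 6.29. The other copy, mmp11b (ENSDARG00000016718), had 2.75, 3.62 and 4.34 CPM at 0 dpa and 127, 69.6 and 62.7 CPM at 4 dpa. Its 4 dpa libraries were uneven, with replicate 1 highest, a replicate in which mmp11a was lowest. The log2 fold-change of mmp11b was 4.22 (SE 0.25).

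The membrane-type protease genes mmp14a (ENSDARG00000002235) and mmp14b (ENSDARG00000008388) rose by unequal amounts. The level of mmp14a was 79.8, 89.8 and 93.9 CPM at 0 dpa and 283, 257 and 299 CPM at 4 dpa. That of mmp14b was 61.5, 65.1 and 64.2 CPM at 0 dpa and 530, 482 and 523 CPM at 4 dpa. The log2 fold-change was 1.68 (SE 0.10, adjusted p = 4.03e-06 by limma) for mmp14a, with a 95% interval of 1.46 to 1.90. For mmp14b it was 3.01 (SE 0.08, adjusted p = 1.31e-07 by limma), with an interval of 2.83 to 3.19, so the intervals of the copies lay apart.

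Within each library, the CPM of mmp14b divided by that of mmp14a was 0.770, 0.725 and 0.684 at 0 dpa, and 1.88, 1.88 and 1.75 at 4 dpa. A ratio within a library does not depend on how the library was scaled, although its absolute value depends on the unequal lengths of the transcripts. The ratio did not overlap between the days and was 2.53-fold higher at 4 dpa. An exact permutation test, two-sided, gave p = 0.1, the smallest that 3 libraries against 3 allow, or 0.15 after Benjamini-Hochberg adjustment over the 6 ratios computed.

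The protease adam8a (ENSDARG00000001452) belongs to the ADAMs, membrane proteins with a disintegrin and a metalloproteinase domain, and its mammalian counterpart is known from leukocytes and osteoclasts. It had 4.34, 5.24 and 4.48 CPM at 0 dpa, on 82, 113 and 92 reads. At 4 dpa it had 229, 182 and 194 CPM, on 6206, 3519 and 5053 reads. This was the largest rise among the 10 genes and ranked 14 among all genes. Its log2 fold-change was 5.17 (SE 0.11, adjusted p = 6.48e-08 by limma), or 43.0 as a ratio of mean CPM. The copy adam8b (ENSDARG00000057644), named here after its values were seen, had 29.1 ± 6.07 CPM at 0 dpa and 76.6 ± 10.9 CPM at 4 dpa (SD, n = 3 each), a log2 fold-change of 1.39 (SE 0.17).

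The inhibitor genes were higher at 4 dpa as well. The level of timp2a (ENSDARG00000061226) was 225, 324 and 281 CPM at 0 dpa and 663, 646 and 682 CPM at 4 dpa. That of timp2b (ENSDARG00000075261) was 11.4, 15.6 and 16.4 CPM at 0 dpa and 112, 108 and 115 CPM at 4 dpa. In both copies the 4 dpa libraries lay close together, and 0 dpa replicate 1 was the lowest library. The log2 fold-change was 1.29 (SE 0.13, adjusted p = 5.86e-05 by limma) for timp2a and 2.90 (SE 0.13, adjusted p = 1.29e-06 by limma) for timp2b, and their 95% intervals of 1.00 to 1.58 and 2.60 to 3.20 lay apart.

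The CPM of timp2b divided by that of timp2a was 0.0506, 0.0481 and 0.0583 at 0 dpa and 0.168, 0.168 and 0.169 at 4 dpa. This ratio was 3.23-fold higher at 4 dpa without overlap (two-sided exact permutation p = 0.1, adjusted 0.15). In mmp14 and in timp2, the b copy was thus higher relative to the a copy in each 4 dpa library than in any 0 dpa library. For mmp13 the ratio of mmp13a to mmp13b was 1.42, 1.02 and 0.583 at 0 dpa and 1.79, 1.05 and 1.86 at 4 dpa. Libraries of both days overlapped (two-sided exact permutation p = 0.2, adjusted 0.24), and the log2 difference in this ratio, 0.68, was 0.33 without 0 dpa replicate 3, 0.97 without 0 dpa replicate 1 and 0.95 without 4 dpa replicate 2.

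**Figure D2:**
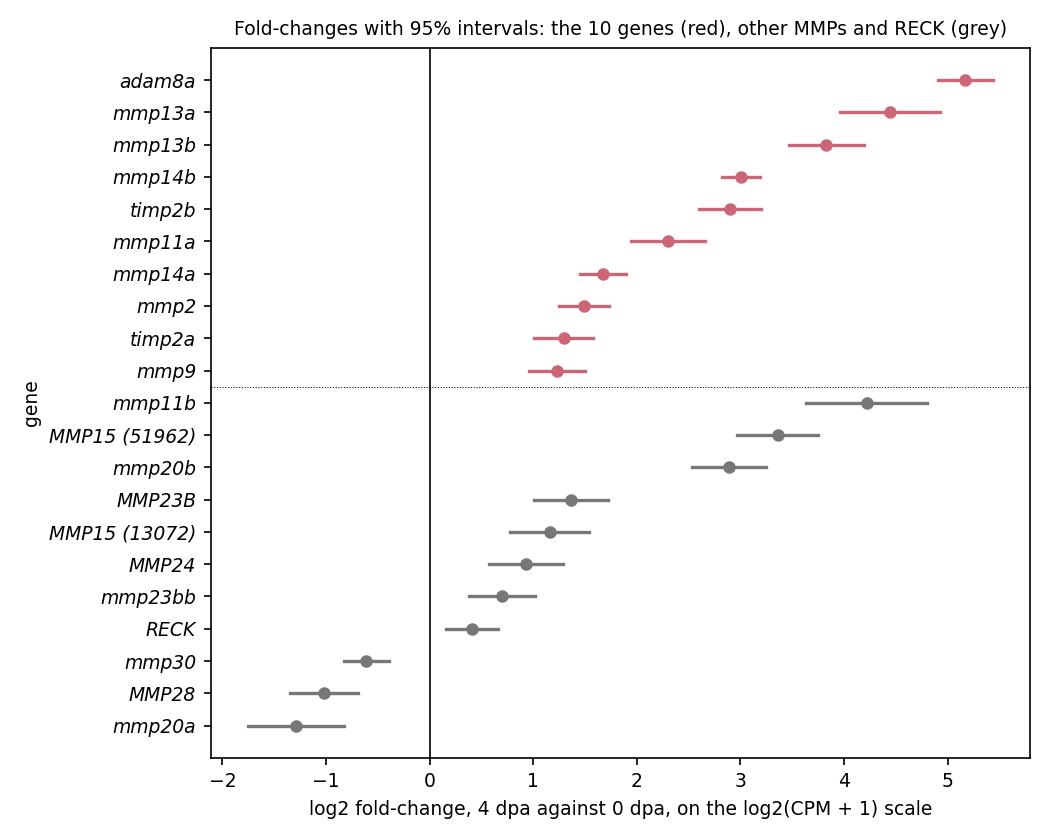
Log2 fold-change of each gene at 4 dpa against 0 dpa with its 95% interval from limma, for the 10 genes (red) and for other genes named as MMPs and RECK (grey, the last 5 digits of the identifier in brackets where a name is shared). All 10 intervals in red lie above 0, from 1.23 for mmp9 to 5.17 for adam8a, whereas 3 of the 10 other MMPs were lower at 4 dpa.

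The genes mmp14, timp2 and mmp2 encode the partners of the membrane complex in which MMP2 is activated in mammals, and their levels were compared as ratios within each library. The summed CPM of the mmp14 copies divided by that of the timp2 copies was 0.597, 0.456 and 0.532 at 0 dpa and 1.05, 0.979 and 1.03 at 4 dpa. Each 4 dpa library was above each 0 dpa library, and the ratio was 1.94-fold higher at 4 dpa (two-sided exact permutation p = 0.1, adjusted 0.15). The ratio of mmp2 to the mmp14 copies was 3.17, 3.69 and 3.53 at 0 dpa and 1.74, 2.04 and 1.75 at 4 dpa. It was lower in each 4 dpa library than in each 0 dpa library, at 0.532 times the 0 dpa value (two-sided exact permutation p = 0.1, adjusted 0.15).

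The ratio of mmp2 to the timp2 copies, by contrast, was 1.89, 1.68 and 1.88 at 0 dpa and 1.83, 2.00 and 1.80 at 4 dpa. Libraries of both days overlapped, and the mean ratio was 1.82 ± 0.117 and 1.87 ± 0.109 (SD, n = 3 each, two-sided exact permutation p = 0.6, adjusted 0.6). The log2 difference was 0.045, with no fixed sign, since it was −0.0096 without 0 dpa replicate 2 and −0.0023 without 4 dpa replicate 2. The summed level of the 8 proteases was 657 to 810 CPM at 0 dpa and 2687 to 2737 CPM at 4 dpa. The 2 inhibitors summed to 237 to 340 CPM at 0 dpa and 754 to 798 CPM at 4 dpa. The sum of the proteases was 2.39 to 2.77 times that of the inhibitors at 0 dpa and 3.38 to 3.56 times at 4 dpa. Reads of mmp2 were 68.2% to 70.8% of the protease reads at 0 dpa and 51.7% to 56.1% at 4 dpa. All of these are sums of reads, to which long transcripts add more than short ones.

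**Figure D3:**
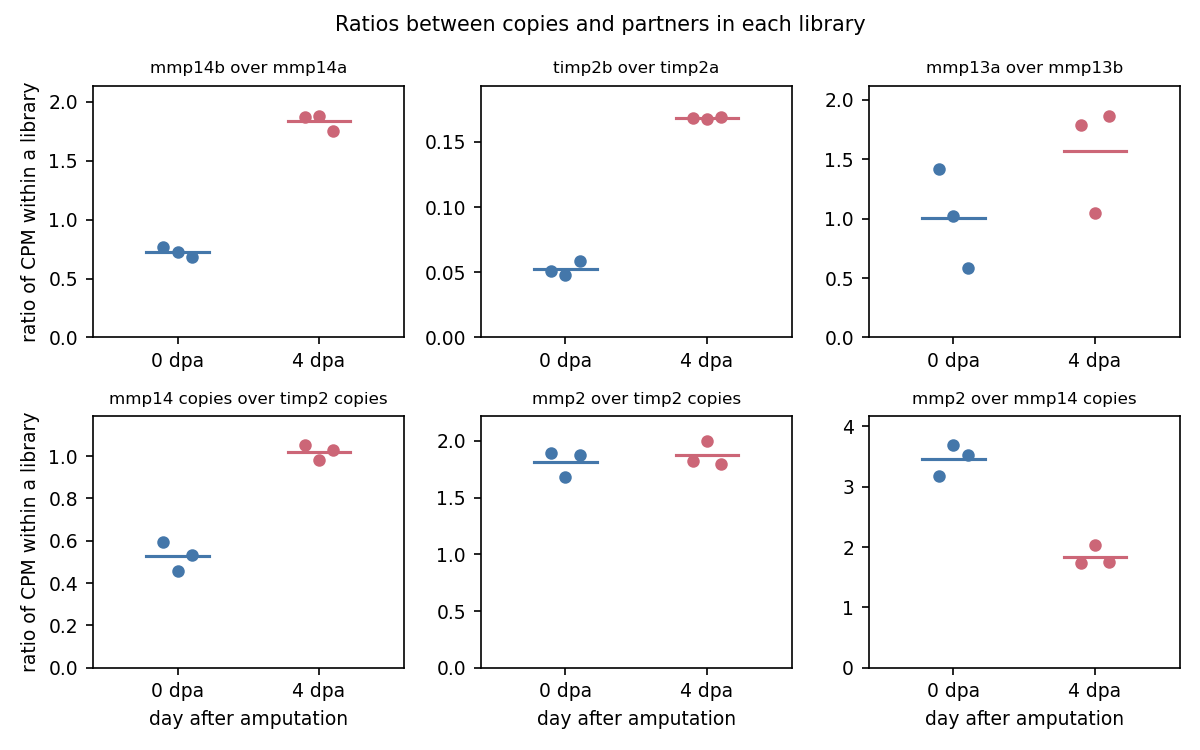
Ratios of CPM within each library for copies of a gene (upper row) and for partners of the MMP2 activation complex (lower row), each axis starting at 0, with 3 points a day and a line at the mean. The days do not overlap for mmp14b over mmp14a, timp2b over timp2a, the mmp14 copies over the timp2 copies and mmp2 over the mmp14 copies, but overlap for mmp13a over mmp13b and for mmp2 over the timp2 copies.

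The rest of the protease families was counted from lists made by gene name. The counts of these lists, here and below, are to be read against the 31.0% of all genes called higher and the 31.2% called lower. Of 10 other MMPs in the table, 7 were higher and 3 lower at 4 dpa, with a median log2 fold-change of 1.05. Beside mmp11b, the largest rises were in MMP15 (ENSDARG00000051962), a further membrane-type enzyme, by 3.36 (SE 0.17), and in mmp20b, by 2.89 (SE 0.16). The gene mmp20b had 0.552 CPM at 0 dpa and 10.4 CPM at 4 dpa, and its mammalian counterpart processes enamel matrix. Its copy mmp20a went the other way, from 8.56 to 2.90 CPM (log2 fold-change −1.29, SE 0.20), as did MMP28, an epidermal MMP in mammals, from 7.31 to 3.01 CPM (log2 fold-change −1.02, SE 0.14). The log2 fold-change of mmp30 was −0.61 (SE 0.10), from 128 to 82.7 CPM. RECK, a membrane-anchored inhibitor of MMPs, was the single further inhibitor matched by name in its list, and rose from 5.29 ± 0.355 to 7.24 ± 0.328 CPM (SD, n = 3 each), by 0.41 (SE 0.11, adjusted p = 0.0115 by limma).

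Among 13 other ADAMs, 7 were higher, 4 lower and 2 not called, with a median of 0.59. The largest rises were in adam19a, by 2.60 (SE 0.14), ADAM12, by 1.51 (SE 0.14), and adam10b, by 1.50 (SE 0.15). While adam10b had 2.90 and 9.78 CPM on the days, the copy adam10a, named after its values were seen, had 285 and 240 CPM. It was called lower (log2 fold-change −0.23, SE 0.08, adjusted p = 0.0311 by limma). Scaled to total reads, the median of all genes was 0.24 on the log2 scale, so a fall of this size may depend on the scaling. This was not checked for adam10a itself. The largest falls were smaller than the largest rises, with log2 fold-changes of −0.83 (SE 0.11) for adam9b, −0.75 (SE 0.13) for adam28 and −0.29 (SE 0.09) for ADAM17 (ENSDARG00000043213), a sheddase of growth factors and cytokines. The fall of this ADAM17 row was not called with scaling to total reads (adjusted p = 0.940 by limma), and its limma adjusted p was 0.0721 without 0 dpa replicate 2, 0.0759 without 4 dpa replicate 1 and 0.0511 without 4 dpa replicate 2. Rows of the same or a similar name, given after their values were seen, were called higher. The other ADAM17 row, ENSDARG00000093093, rose by 0.59 (SE 0.13) to 5.67 CPM, and ADAM9 (ENSDARG00000010070) by 1.04 (SE 0.12) to 31.0 CPM.

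The ADAMTS proteases, secreted enzymes that cut procollagens and proteoglycans, had 9 of 13 genes higher and 2 lower, with a median of 1.25. ADAMTS3 rose by 2.55 (SE 0.14), from 0.16 to 5.79 CPM, and ADAMTS14 by 2.50 (SE 0.15), from 0.592 to 7.95 CPM. The gene adamts2a was more abundant than both on each day, and fell from 31.2 to 23.1 CPM. ADAMTS14 had, at 0 dpa, 12, 12 and 12 reads and, at 4 dpa, 175, 157 and 242. The added 1 CPM weighs on such low genes, and limma-voom on the reads gave 4.96 for ADAMTS3, 5.30 for ADAMTS17 and 3.74 for ADAM12. ADAMTS17 rose by 2.75 (SE 0.16), while the log2 fold-change was −1.56 (SE 0.18) for ADAMTS8 (ENSDARG00000058252) and −0.39 (SE 0.12) for adamts2a. Another row with the name ADAMTS8, ENSDARG00000007709, went the other way and was called higher. Named here after its values were seen, it had 4.29 CPM at 0 dpa and 12.2 CPM at 4 dpa (log2 fold-change 1.485, SE 0.34). The fall of adamts2a was not called with scaling to total reads (adjusted p = 0.379 by limma), and its limma adjusted p was 0.0536 without 0 dpa replicate 2, 0.0606 without 0 dpa replicate 3, 0.0675 without 4 dpa replicate 1 and 0.0507 without 4 dpa replicate 3. In the list of BMP1, tolloid and meprin proteases both genes were called higher, but the days overlapped for mep1a.1, a meprin gene named after its values were seen. In that list 1 gene stayed called with quantile normalization, and likewise in 5 of the 6 fits that left out a library, the exception being the fit lacking 0 dpa replicate 1. BMP1, which removes the carboxy-terminal propeptide of procollagen, rose from 8.53 ± 0.435 to 114 ± 18.4 CPM (SD, n = 3 each), by 3.60 (SE 0.13).

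The plasminogen system, whose protease plasmin can activate MMP precursors, had 4 of 6 genes higher and 1 lower. PLAU (ENSDARG00000039145), a urokinase-type activator, fell from 54.4 to 23.9 CPM (log2 fold-change −1.14, SE 0.14), while plaua rose from 1.98 to 4.05 CPM (0.76, SE 0.18). SERPINE2, an inhibitor of these activators, rose by 0.92 (SE 0.11). Of 6 proprotein convertases, which remove the inhibitory segment of membrane-type MMPs and ADAMs, 2 were higher and 1 lower. Of all genes, 31.0% were higher and 31.2% lower. A FURIN copy, ENSDARG00000070971, rose by 1.33 (SE 0.12) and PCSK5 by 1.18 (SE 0.13), whereas pcsk5a, called lower, had, at 0 dpa, 17, 33 and 37 reads and, at 4 dpa, 4, 2 and 4. The other FURIN copy, ENSDARG00000062909, named after its values were seen, had 88.7 ± 21.6 and 91.1 ± 9.18 CPM (SD, n = 3 each) and was not called.

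Of 12 cathepsins, lysosomal proteases that some cells also secrete, 4 were higher and 2 lower, beside 31.0% and 31.2% of all genes. The largest rises were in ctsla, by 2.54 (SE 0.09), CTSK, the collagen-degrading cathepsin of osteoclasts, by 1.50 (SE 0.16), and CTSD, by 1.37 (SE 0.10). The log2 fold-changes of ctss2.2, −0.66 (SE 0.19), and CTSO, −0.51 (SE 0.16), were not called with scaling to total reads (limma adjusted p = 0.13 and 0.208). For ctss2.2 the limma adjusted p was 0.0645 without 4 dpa replicate 3, and the log2 fold-change was −0.42 without 0 dpa replicate 1. For CTSO the limma adjusted p was 0.0613, 0.0551 and 0.0703 without 0 dpa replicate 1, 0 dpa replicate 2 and 4 dpa replicate 3. The list of cystatins and alpha-2-macroglobulins matched 3 genes, all of them cystatins, of which 1 was higher and 1 lower. The cathepsin inhibitor cst3 fell from 581 to 250.2 CPM (log2 fold-change −1.20, SE 0.10), so this inhibitor moved opposite to timp2a and timp2b, and cst14a.2 rose by 0.44 (SE 0.11).

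Of 6 genes listed as able to raise transcription of some MMPs in some mammalian cells, 3 were higher and 1 lower. Their effect on the MMP genes of this fin was not tested. The cytokine gene il11a had, at 0 dpa, 0, 3 and 0 reads and, at 4 dpa, 49, 43 and 88, tgfb1b rose by 0.74 (SE 0.12) and tgfb1a by 0.42 (SE 0.09). The log2 fold-change of il17a/f3 was −0.72 (SE 0.15). BSG, a surface protein that induces MMPs in neighbouring cells, is named although it lay outside the rule for naming, and had 348 and 354 CPM on the days and was not called.

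The levels of cell type markers are given beside these genes, and their calls are to be read against the 31.0% of all genes called higher and the 31.2% called lower. The 13 markers of blastema and fin mesenchyme were all higher at 4 dpa, with a median log2 fold-change of 2.43 and a summed level of 140 to 163 CPM at 0 dpa and 2887 to 4014 CPM at 4 dpa. Of that sum, and1, an actinotrichia gene, had 1.50 and 1290 CPM, and the other 12 markers gave 139 to 161 CPM at 0 dpa and 1775 to 2449 CPM at 4 dpa. Much of the 4 dpa sum of these 12 was from and2, with 0.117 and 903 CPM on the days, and TNC (ENSDARG00000021948), with 4.35 and 538 CPM. The log2 fold-changes of the remaining rows ran from 1.34 for twist1b to 4.285 for TNC (ENSDARG00000078362). These rows are named after their values were seen. Of 9 osteoblast markers 7 were higher, 1 lower and 1 not called. The sum of this list was carried by COL10A1, with 194 CPM at 0 dpa and 6223 CPM at 4 dpa, while the other 8 summed to 111 to 143 CPM and 451 to 528 CPM.

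Of 9 osteoclast markers 6 were higher and 3 lower, and their sum was 553 to 702 CPM at 0 dpa and 1144 to 1195 CPM at 4 dpa. CTSK carried that difference, and the other 8 summed to 254 to 261 CPM at 0 dpa and 194 to 223 CPM at 4 dpa. Among these, ACP5, the tartrate-resistant acid phosphatase of osteoclasts, rose by 2.31 (SE 0.17). Also called higher were ocstamp, by 1.61 (SE 0.18), NFATC1, by 1.47 (SE 0.19), and tnfrsf11a, by 0.47 (SE 0.14). TCIRG1 and CLCN7 were among the 3 called lower, with log2 fold-changes of −0.93 (SE 0.12) and −0.44 (SE 0.09). The rows named ITGB3 went opposite ways. ENSDARG00000056767 had a log2 fold-change of −1.08 (SE 0.10), from 189.6 to 88.1 CPM. It was the most abundant of the 8 markers other than CTSK on each day, so their sum follows this row most. ENSDARG00000045070 rose by 1.59 (SE 0.16), from 1.86 to 7.40 CPM. Of 19 myeloid markers 2 were higher, 7 lower and 10 not called, and their sum was 976 to 1347 CPM at 0 dpa and 676 to 820 CPM at 4 dpa. SPI1 and marco were those called higher, by 0.81 and 0.74, and the log2 fold-changes of the 7 called lower ran from −0.34 for LCP1 to −3.82 for MPEG1 (ENSDARG00000078569). With scaling to total reads the median of all genes was 0.24, so the LCP1 fall may depend on the scaling, which was not checked for this gene. That MPEG1 row was uneven, with 81.0, 22.8 and 64.1 CPM at 0 dpa and 1.55, 8.16 and 0.843 CPM at 4 dpa. The other rows named MPEG1 were not called. ENSDARG00000055290 had 115.6 and 108.5 CPM on the days, and ENSDARG00000043093 had 112.5 and 39.7 CPM (adjusted p = 0.0559 by limma). The 0 dpa mean of ENSDARG00000043093 was carried by replicate 1. Its libraries had 220, 55.3 and 62.3 CPM at 0 dpa and 35.9, 52.1 and 31.0 CPM at 4 dpa. These marker genes are named after their values were seen.

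Of 16 epidermis markers 3 were higher, 8 lower and 5 not called, with a sum of 90150 to 99930 CPM at 0 dpa and 44410 to 50750 CPM at 4 dpa. Most of that sum was from krt5, with 37480 and 23500 CPM on the days, and krt91, with 38560 and 11080 CPM. The 5 not called included TP63 and epcam, and LAMA5 rose by 2.855 (SE 0.15). These epidermis markers are named after their values were seen. The log2 fold-changes of the 8 called lower ran from −0.66 (SE 0.14) for krt5 to −1.79 (SE 0.12) for krt91. Both krt4 and krt5 were abundant in the libraries of both days, although both were called lower at 4 dpa. The few blood and muscle genes matched by name were scarce. They had 3.00 to 15.6 CPM summed over 3 red blood cell genes and 0.517 to 5.31 CPM for the muscle gene ckma. Most names sought for these lists matched no row, so the level of blood and muscle genes as a whole is not shown. The calls of 2 red blood cell genes as higher were lost in 4 of the 6 fits that left out a library. Each marker had reads in at least 1 library. The part that changes in cell makeup had in the levels of the 10 genes was not tested.

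**Figure D4:**
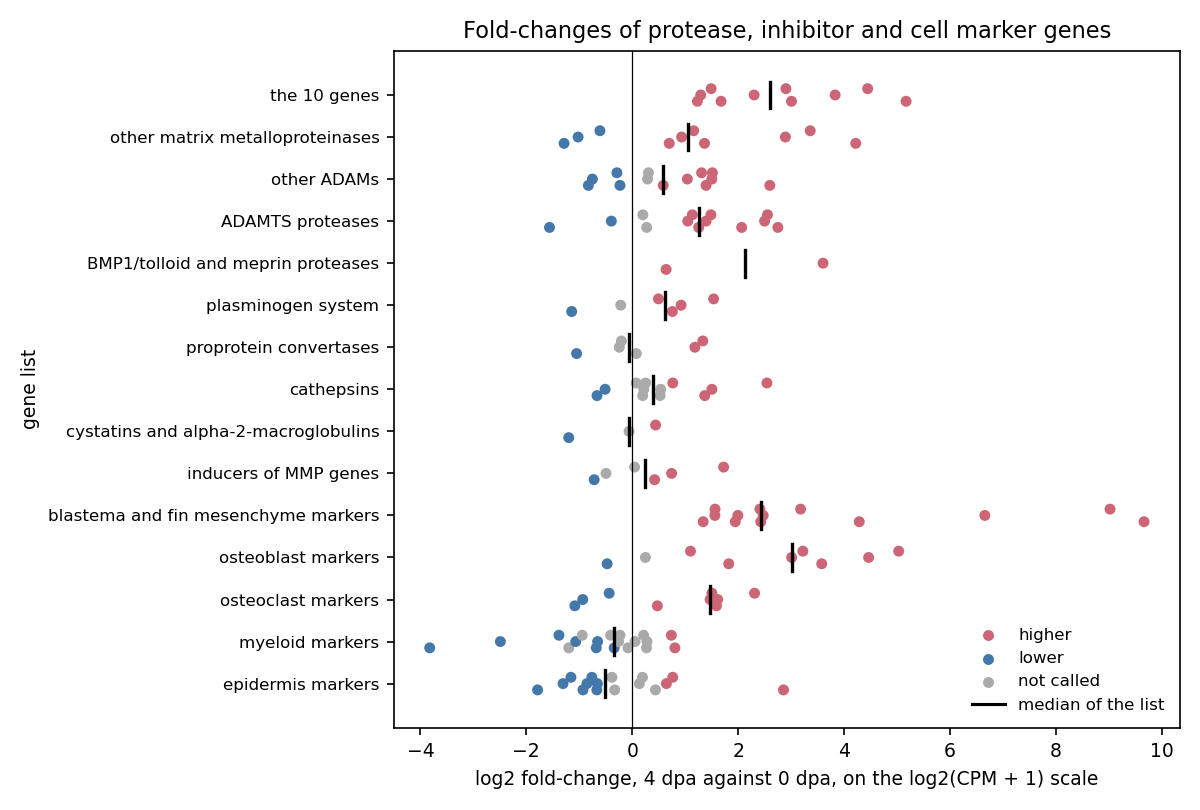
Log2 fold-change of each gene in the protease, inhibitor and cell marker lists, 4 dpa against 0 dpa, coloured by limma call (red higher, blue lower, grey not called), with a black line at the median of the list. The median is 2.60 for the 10 genes, 2.43 for mesenchyme, 3.01 for osteoblast, 1.47 for osteoclast, −0.34 for myeloid and −0.52 for epidermis markers, and genes of both directions are present in most lists.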

How the data were processed

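The authors made strand-specific polyA+ libraries, paired-end sequenced them on an Illumina HiSeq2500, and counted reads for Ensembl genes. The submitters' processing notes name Trimmomatic, RSEM, edgeR and the Zv9 assembly, without the part each had for these libraries. The deposited log2 values are log2(CPM + 1), with CPM taken over an adjusted library size. When the worth of 1 read was worked out for each library, 100% of values were whole reads within 0.05. The miRNA table was not used here.

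Each library was rescaled on the log2 scale by the trimmed mean of its log ratios to the average library (30% of ratios and 5% of levels trimmed at each end; shifts of −0.0176 to 0.0181) and fitted with limma 3.58.1 in R 4.3.3 (lmFit, eBayes with trend), 4 dpa against 0 dpa, with no covariates. Adjusted p-values are over all 16951 genes, at a threshold of 0.05. Fold-changes of low genes are understated by the added 1 CPM. Ratios within libraries were compared by exact permutation tests. Figures used Python 3.11.15, Matplotlib 3.10.9, NumPy 2.4.6, pandas 2.3.3 and SciPy 1.17.1.

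The 10 genes, the lists and the tests were chosen with earlier results of these data known. Lists were matched to the 13664 genes (80.6%) that the reference table names. Copy letters, and the name mmp13b, came from the Ensembl annotation given by the study, and the reference table has no name for the row taken as mmp13b. Many names are human-style and shared by copies, and reads of near-identical copies may have been divided between them in counting. Of the protease, inhibitor and inducer lists, the text names the 3 largest rises and 3 largest falls with an adjusted p under 0.05, at least 1 CPM on a day and no overlap, and every further TIMP and RECK. A gene that this rule selects is not reported here. Libraries of a day differed beyond sampling noise (chi-square per degree of freedom of 13.9 to 49.5) and each counted as 1 replicate. The study describes triplicates of pooled fins. Alternatives covered scaling, limma-voom, the pseudocount, a filter on low values, a fold minimum, a replicate block and leaving out each library.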

Additional observations from a re-analysis of the deposited data

How the results depend on the processing

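All 10 genes were called higher under each of the 14 alternatives run. The log2 fold-changes of the 10 ran from 1.14 to 1.51 for mmp9, from 1.16 to 1.58 for timp2a and from 4.21 to 5.10 for mmp13a. Over the 6 fits that each left out a library, the largest limma adjusted p of mmp9 was 0.000522. Of the 47 single genes named by rule, these 10 included, 43 kept direction and call throughout, and the exceptions are given with ADAM17, adamts2a, ctss2.2 and CTSO.

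Over all genes, 5251 were higher and 5281 lower. Scaled to total reads, 7518 were higher and 3595 lower, with the median of all genes at 0.24, so fold-changes are relative to the bulk of genes as the authors' adjusted library sizes set it. With a fold minimum of 2, 3683 genes were left, 1836 higher and 1847 lower, which follows from the stricter threshold. Leaving out 1 library gave 9100 to 10169 called genes.

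The log2 difference in the ratio of mmp2 to the timp2 copies ran from −0.0096 to 0.075 when 1 library was left out, and turned negative without 0 dpa replicate 2 (−0.0096) or 4 dpa replicate 2 (−0.0023).

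Libraries with the same number did not consistently deviate together (correlations of 0.17, −0.012 and 0.15 over 4307 genes), and 3 of 6 correlated best with the library of their own number. With the replicate number as a block, 10486 genes were called and all 10 proteases and inhibitors stayed higher. With 3 libraries a day, no exact test of a ratio can give a p under 0.1.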
